A study of Mus musculus with 2 samples.

Results

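Outer hair cell nuclei of the neonatal mouse cochlea were chosen by the levels of 19 genes, and this marker gate kept 490 of the 19128 nuclei that passed the quality limits: 259 of 10448 in the Serpine2 cOE library and 231 of 8680 in the control library. A nucleus needed at least 500 genes, at most 5% mitochondrial UMIs (unique molecular identifiers, each a counted RNA molecule) and at most 12000 UMIs. It also needed a UMI of at least 4 of 8 hair cell genes (Ptprq, Myo3a, Tmc1, Loxhd1, Strip2, Dytn, Pcdh15, Cdh23) and of at least 1 of the outer hair cell genes Slc26a5, Ocm and Ikzf2. Nuclei with 2 or more UMIs of the inner hair cell genes Slc17a8 and Fgf8 together, or with 2 or more of Ano1, Pla2r1, Tecta, Bmp4, Rasgef1b and Otx2os1 detected, were left out. The values of these 19 genes are therefore descriptions, and levels that follow hair cell identity describe the gate without testing it.

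The Serpine2 cOE library came from 20 pooled cochleae of mice with 1 Lgr5EGFP-CreER allele and Serpine2 loxp/loxp, and the control library from 19 pooled cochleae of Serpine2 loxp/loxp mice without the driver. Mice of both groups received tamoxifen at postnatal day 1 and were collected at day 7. The labels call the tissue basement membranes of the cochlea. By its title, the series concerns hair cell regeneration from Lgr5+ progenitors under conditional overexpression of Serpine2. What recombination does to the Serpine2 alleles was not described in the sources used here, and the driver and the Serpine2 state differed together, so their parts cannot be told apart. Each group was 1 library, so no test between groups was possible and every interval given is a 95% interval of counting error only.

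Outer hair cells amplify sound by changing length. Slc26a5 encodes prestin, the motor protein of their lateral wall, Ocm encodes the calcium buffer oncomodulin, and Ikzf2 encodes helios, a transcription factor of outer hair cell maturation. Inner hair cells, their neighbours, pass the signal to the auditory nerve through ribbon synapses. In the first postnatal week of the mouse both kinds are still maturing, and supporting cells that express the Wnt receptor gene Lgr5 can give rise to new hair cells.

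The promoters of Slc26a5 and Ryr1 are shown because Slc26a5 encodes the motor of these cells and Ryr1, an intracellular calcium release channel, is the given marker that the rule did not use. Both sequences are the 250 bases before the gene's start in RefSeq (GRCm38.p6, minus strand), at chr5:21865605-21865854 for Slc26a5 and chr7:29125152-29125401 for Ryr1, written 5′ to 3′ in the direction of the gene.
Slc26a5: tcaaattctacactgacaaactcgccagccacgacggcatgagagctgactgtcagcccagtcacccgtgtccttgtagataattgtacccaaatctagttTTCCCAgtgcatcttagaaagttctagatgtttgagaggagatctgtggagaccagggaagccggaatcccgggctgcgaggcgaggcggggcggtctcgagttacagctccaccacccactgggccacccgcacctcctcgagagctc
Ryr1: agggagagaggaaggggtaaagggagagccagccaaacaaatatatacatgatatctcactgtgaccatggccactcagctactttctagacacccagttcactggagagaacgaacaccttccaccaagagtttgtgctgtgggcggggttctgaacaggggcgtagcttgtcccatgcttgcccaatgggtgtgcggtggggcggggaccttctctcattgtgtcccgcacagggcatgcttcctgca
Capitals mark TTCCCA, the reverse complement of TGGGAA, the core bound by Ikaros-family factors such as helios, found 149 bases before the start of Slc26a5. Both strands were searched for TGGGAA, for GTTGCC (a half-site of RFX factors) and for TAATTA (a homeodomain core), and none of the 3 contains another. The Ryr1 window held none of the 3. TGGGAA occurred in 21.5% of all 27025 promoters of this length, GTTGCC in 10.5% and TAATTA in 4.90%. Of the given markers, 4 had a promoter entry and 1 of these held TGGGAA, and of the 12 genes named below as most in excess over the inner gate, 11 had an entry and 3 held it (Dnah8, Bcl11a and Jakmip1). These shares lay near that of all promoters, and a match is a description of letters only.

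Serpine2, which encodes a secreted protease inhibitor and is the gene the design targets, stood at 37.7 CPM (28.4 to 49.2) in gated nuclei of Serpine2 cOE, compared with 31.3 CPM (22.0 to 43.1) in those of control. CPM are UMIs of a gene scaled to a common total of all UMIs in the gate. The log2 difference was 0.27 (-0.36 to 0.92), so counting error covered either direction. In all other nuclei it stood at 87.6 CPM in Serpine2 cOE and 95.8 CPM in control, a log2 difference of -0.13 (-0.21 to -0.05). Serpine2 was thus not higher in Serpine2 cOE in the other nuclei, and whether a transcript of the construct would carry the counted 3′ end is not given in the sources used here. After thinning each nucleus to 1000 UMIs, Serpine2 was detected in 3.88% of gated nuclei of Serpine2 cOE and 2.70% of those of control, against 6.71% and 7.69% of nuclei with at least 3 of 10 macrophage markers (the macrophage gate). Before thinning the shares were 15.8% and 13.4% in the outer gate. The thinned shares in the outer gate did not stand above this background.

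The libraries held 12014 barcodes with 40429121 UMIs (Serpine2 cOE) and 9820 barcodes with 31158971 UMIs (control). Of these barcodes 27 occurred in both libraries, none of them in both gates. Gated nuclei had a median of 5161 UMIs and 2786 genes in Serpine2 cOE and of 5021 UMIs and 2691 genes in control. The gate totals were 1430759 UMIs in Serpine2 cOE and 1183280 in control, and 3 counts, the limit that a count of 0 allows, corresponded to 2.10 CPM in Serpine2 cOE and 2.54 CPM in control.

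The control gate held more nuclei near the lower limit of the rule. Exactly 4 of the 8 hair cell genes were detected in 2 Serpine2 cOE and 17 control nuclei, with median depths of 3853 and 1708 UMIs, and all 8 in 171 and 126 nuclei, with median depths of 5559 and 5781.5 UMIs. Just outside, 9 Serpine2 cOE and 29 control nuclei had 3 of the 8 genes with all else met. At the upper limit, 11 Serpine2 cOE and 15 control barcodes exceeded 12000 UMIs with all else met. A further 79 Serpine2 cOE and 62 control nuclei were left out only for 2 or more of the 6 excluded genes, while 90 and 61 gated nuclei held exactly 1 of them.

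All of Slc26a5, Ocm and Ikzf2 were detected together in 150 of 259 Serpine2 cOE nuclei (57.9%) and 108 of 231 control nuclei (46.8%). Slc26a5 had a UMI in 222 Serpine2 cOE nuclei (85.7%, Clopper-Pearson interval 80.9% to 89.7%) and in 179 control nuclei (77.5%, 71.6% to 82.7%). Ocm alone admitted 8 Serpine2 cOE and 19 control nuclei. Of the 3 genes Ocm was the one most often found in macrophage-gate nuclei: after thinning it was in 34.5% of gated nuclei of Serpine2 cOE and 36.5% of those of control, and in 15.4% and 10.3% of macrophage-gate nuclei (before thinning 76.1% and 74.9% against 23.4% and 21.4%). Slc26a5 was in 34.5% of thinned gated nuclei of Serpine2 cOE and 31.5% of those of control, and in 0 of 149 and 3 of 195 macrophage-gate nuclei. At this depth the count of 0 allows a share of nuclei with a UMI of up to 2.01%, and before thinning 2 of 154 and 6 of 210 macrophage-gate nuclei had one. Median depths before thinning were 5161 and 5021 UMIs in the gate and 2015.5 and 2027.5 UMIs in the macrophage gate.

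Within the gate, Slc26a5 (GRCm39 chr5:22015653-22070615, minus strand) stood at 444 CPM (410.0 to 479.7) in Serpine2 cOE, compared with 402 CPM (367 to 440.1) in control, against 7.77 CPM and 7.37 CPM in all other nuclei. Ocm (GRCm39 chr5:143956622-143963488, minus strand) stood at 446 CPM (412 to 482) in Serpine2 cOE, compared with 379 CPM (344 to 415) in control. Ikzf2 (GRCm39 chr1:69570373-69727004, minus strand) stood at 580.1 CPM (541 to 621) in Serpine2 cOE, compared with 569.6 CPM (527 to 614) in control. These are levels the rule selected. After thinning, Ocm had a UMI in 10.7% of all other nuclei of Serpine2 cOE and 7.46% of those of control. For Ikzf2 these shares were 9.02% and 7.99%, and for Slc26a5 0.554% and 0.383%. Strip2, also a gene of the rule, stood at 2609 CPM in Serpine2 cOE and 2586 CPM in control.

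Ryr1 (GRCm39 chr7:28702769-28824604, minus strand) had 124 CPM (107 to 144) in gated nuclei of Serpine2 cOE, compared with 112 CPM (93.3 to 132) in those of control. In all other nuclei it had 3.14 CPM in Serpine2 cOE and 3.29 CPM in control, log2 differences of 5.31 (4.94 to 5.68) and 5.08 (4.66 to 5.51). Ryr1 was thus far higher in gated nuclei than in all other nuclei in both libraries. This comparison does not tell outer from inner hair cells. The inner hair cell gate took the same quality and hair cell limits with at least 2 UMIs of Slc17a8 plus Fgf8, and there Ryr1 had 2.52 CPM from 1 UMI in Serpine2 cOE and 64.3 CPM from 7 UMIs in control. Slc26a5, a gene of the rule, had a UMI in 4 of the 62 inner gate nuclei of Serpine2 cOE (6.45%, 1.79% to 15.7%) and in 5 of the 16 of control (31.2%, 11.02% to 58.7%). After thinning it had one in 1 of 62 and 0 of 16, so no difference between the libraries was detectable in the thinned inner nuclei.

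**Figure D1:**
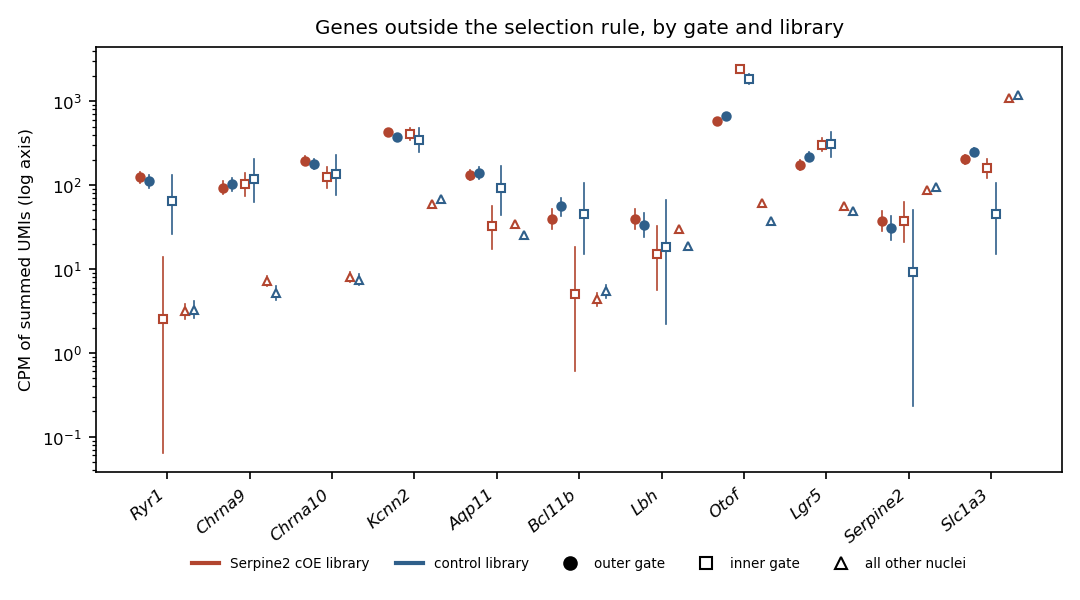
Levels of 11 genes outside the selection rule, in CPM of summed UMIs on a log axis, for the outer gate (filled circles), the inner gate (open squares) and all other nuclei (open triangles), red for the Serpine2 cOE library and blue for the control library, with 95% counting intervals. Ryr1 stands at 124 CPM in the outer gate of Serpine2 cOE and 112 CPM in that of control, far above other nuclei, while Otof is higher in the inner gate and Slc1a3 in other nuclei.

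The gated nuclei carried the genes of the mechanically sensitive hair bundle. Against all other nuclei, 1428 of 14591 genes (9.79%) were 2-fold or more higher in both libraries and 2645 (18.1%) 2-fold or more lower, and the median gene differed by -0.35 in Serpine2 cOE and -0.33 in control on the log2 scale. Genes needed at least 20 UMIs on the higher side, a lower level in the other nuclei, which held more UMIs. The 2 counts and the medians thus do not compare the directions. Of 29 measured hair bundle genes outside the rule, 25 were higher and 0 lower, with median log2 differences of 3.33 in Serpine2 cOE and 3.53 in control. Espn, an actin-bundling protein of stereocilia, stood at 196 CPM in the gate against 11.1 CPM in other nuclei of Serpine2 cOE, and at 168 CPM against 8.86 CPM in control. Strc encodes stereocilin, which links outer hair cell stereocilia to each other and to the tectorial membrane. It stood at 155 CPM against 4.70 CPM in Serpine2 cOE and at 174 CPM against 4.91 CPM in control. Of 6 measured mechanotransduction genes outside the rule, Tmc2, Tmie, Lhfpl5, Cib2 and Pkhd1l1 were higher. Tmie, a subunit of the transduction channel complex, had log2 differences of 3.08 (2.64 to 3.51) in Serpine2 cOE and 3.16 (2.65 to 3.65) in control.

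Genes of the efferent input were high as well, with 6 of 7 measured motility and efferent genes past 2-fold. Chrna9 and Chrna10 encode the nicotinic receptor subunits through which the efferent nerve acts on outer hair cells. Chrna9 stood at 93.7 CPM (78.5 to 111) in the gate of Serpine2 cOE, compared with 102 CPM (84.9 to 122) in that of control, against 7.28 CPM and 5.18 CPM in other nuclei. Chrna10 stood at 196 CPM (173 to 220.0) in Serpine2 cOE, compared with 179 CPM (156 to 205) in control, against 8.07 CPM and 7.50 CPM. Kcnn2, the calcium-gated potassium channel that couples to this receptor, had log2 differences of 2.86 (2.72 to 2.99) in Serpine2 cOE and 2.47 (2.32 to 2.62) in control. Chrna9, Chrna10 and Kcnn2 were thus higher in the gate than in other nuclei in each library. The inner gate carried such genes too. After thinning, Chrna10 had a UMI in 16.1% of inner gate nuclei of Serpine2 cOE and 18.8% of those of control. In the outer gate the shares were 17.4% and 14.0%. Between the outer and inner gates, 0 of 6 measured motility and efferent genes were past 2-fold in both libraries. Their median log2 difference, outer over inner, was 1.495 in Serpine2 cOE and 0.53 in control, against 0.27 and 0.41 over all measured genes.

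Calcium handling, synaptic and transcription factor genes divided. Of 20 measured calcium and potassium handling genes, 11 were higher and 2 lower (Itpr2 and Slc24a2). Calb1, the calcium buffer calbindin, stood at 835 CPM in the gate against 79.1 CPM in other nuclei of Serpine2 cOE, and at 708 CPM against 63.3 CPM in control. Of 16 measured synapse genes, 10 were higher, among them Cacna1d, the calcium channel of the hair cell synapse, at 3.75 in Serpine2 cOE and 3.78 in control on the log2 scale, and 1 was lower. Of 22 measured transcription factors and regulators, 10 were higher (Pou4f3, Gfi1, Barhl1, Lhx3, Six2, Sall1, Sall3, Bcl11b, Rorb and Jag2) and Tbx2 and Prox1 lower. Pou4f3, needed for hair cell survival, had log2 differences of 3.04 (2.68 to 3.40) in Serpine2 cOE and 3.02 (2.57 to 3.45) in control. Sall3, a zinc finger factor, stood at 314 CPM against 25.2 CPM in Serpine2 cOE and at 279 CPM against 19.6 CPM in control.

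By the smaller of the 2 library ratios, the 12 genes most in excess over other nuclei were St8sia3os, Ckmt1, Pdzph1, Syce3, Slc47a2, Ryr1, Ofcc1, Strc, Tmem145, Baiap2l2, Mgat5b and Ctxnd2. Ckmt1, a mitochondrial creatine kinase, stood at 282 CPM in the gate against 7.41 CPM in other nuclei of Serpine2 cOE (log2 difference 5.25, interval 5.01 to 5.49) and at 363 CPM against 9.52 CPM in control (log2 difference 5.25, interval 5.01 to 5.49). Baiap2l2, a protein of stereocilia tips, had log2 differences of 5.02 (4.77 to 5.27) in Serpine2 cOE and 5.03 (4.73 to 5.34) in control. Slc47a2, an organic cation transporter gene, had 5.12 (4.72 to 5.52) in Serpine2 cOE and 5.58 (5.09 to 6.08) in control.

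Markers of other cells differed from list to list. Of 17 measured supporting cell genes 11 were lower and 2 higher, Lgr5 among the latter. Slc1a3, a glutamate transporter gene, was lower, at 203 CPM in the gate against 1081 CPM in Serpine2 cOE and at 251 CPM against 1179.6 CPM in control. Of 11 mesenchyme genes 9 were lower, and of 10 macrophage genes 4, with Cx3cr1 higher at 48.2 CPM against 20.3 CPM in Serpine2 cOE and 70.1 CPM against 28.5 CPM in control. Of 8 epithelium genes outside the rule 6 were lower, of 8 osteoblast or chondrocyte genes 4, of 5 endothelium genes 3 and of 7 glia genes 3, while 0 of 5 erythroid genes were lower, and 0 of any of these were higher. Of 7 neuron genes, Tubb3, Syt1 and Gap43 were lower and Rbfox3 and Snap25 higher, with median log2 differences of -1.13 in Serpine2 cOE and 1.15 in control. Among Notch pathway genes, 9 of 16 were lower and the ligand gene Jag2 higher. Among Wnt pathway genes, 14 of 26 were lower and Lgr5 higher.

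Lgr5 (GRCm39 chr10:115286216-115423685, minus strand) carries the driver allele in Serpine2 cOE. It stood at 174 CPM (153 to 197) in gated nuclei of Serpine2 cOE, compared with 219.7 CPM (194 to 248) in those of control, against 56.8 CPM and 49.3 CPM in other nuclei. In the inner gate it stood at 305 CPM in Serpine2 cOE and 312 CPM in control. After thinning, Lgr5 was in 45 of 258 gated nuclei of Serpine2 cOE (17.4%) and 44 of 222 of control (19.8%, 14.8% to 25.7%), with 1 and 9 shallower nuclei left out, while before thinning the shares were 52.1% and 55.4%. The thinned shares stood above the 1.34% and 2.56% of macrophage-gate nuclei and the 3.20% and 3.50% of all other nuclei. Between the libraries Lgr5 differed by -0.34 (-0.59 to -0.08) within the gate, lower in Serpine2 cOE, which carries 1 engineered Lgr5 allele, and the part of that allele cannot be told apart. Sox2, a supporting cell factor, had a UMI in 0 of 258 and 0 of 222 thinned gated nuclei (1.93% and 3.03% of nuclei before thinning), and at this depth the count of 0 allows shares of nuclei with a UMI of up to 1.16% in Serpine2 cOE and 1.35% in control.

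The share of nuclei in the outer gate was 2.48% (2.19% to 2.80%) in Serpine2 cOE against 2.66% (2.33% to 3.02%) in control. Their ratio was 0.931 (0.777 to 1.12), so counting error covered no difference. Under other gate settings the ratio lay between 0.856 and 1.01, with 1 inside each interval. The inner gate had 62 of 10448 nuclei (0.593%, 0.455% to 0.760%) in Serpine2 cOE against 16 of 8680 (0.184%, 0.105% to 0.299%) in control, a ratio of 3.22 (1.84 to 5.98). Outer nuclei were 80.7% (75.9% to 84.9%) of the 321 outer and inner gate nuclei in Serpine2 cOE and 93.5% (89.7% to 96.3%) of the 247 in control. A further 24 Serpine2 cOE and 39 control nuclei met the hair cell limits and entered neither gate. They had no UMI of Slc26a5, Ocm or Ikzf2 and fewer than 2 UMIs of Slc17a8 plus Fgf8.

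**Figure D2:**
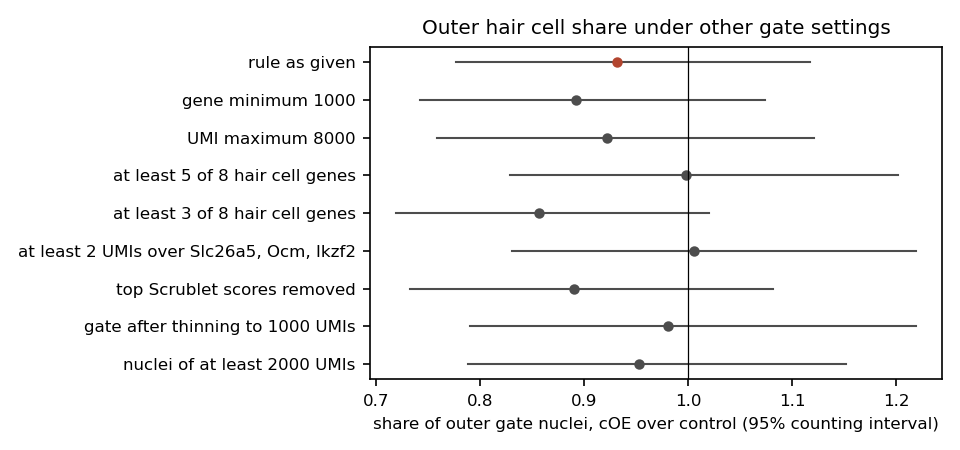
Ratio of the share of outer gate nuclei, Serpine2 cOE over control, under the rule as given and under other gate settings, with 95% counting intervals and a line at 1. The ratio is 0.931 as given and 0.856 to 1.01 elsewhere, and each interval includes 1.

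Genes differed between the outer and inner gates in both directions. Of 4965 genes with at least 20 UMIs on the higher side in each library, 279 (5.62%) were 2-fold or more higher in outer nuclei in both libraries and 85 (1.71%) 2-fold or more lower, and the median gene differed by 0.27 in Serpine2 cOE and 0.41 in control. In control the outer gate held 1183280 UMIs and the inner gate 108917 UMIs. The minimum of 20 UMIs was therefore a lower level in outer nuclei. So was the floor of 3 counts, at 2.54 CPM in the outer and 27.5 CPM in the inner gate of control. The 2 counts, the medians and the sizes of the largest ratios thus do not compare the directions. Otof encodes otoferlin, the calcium sensor of hair cell transmitter release. It stood at 585 CPM in outer against 2456 CPM in inner nuclei of Serpine2 cOE (log2 difference -2.07, interval -2.20 to -1.94), and at 670.2 CPM against 1836 CPM in control (log2 difference -1.45, interval -1.68 to -1.22). Rims2, an active zone scaffold, stood at 335 CPM against 4905 CPM in Serpine2 cOE (log2 difference -3.87, interval -4.02 to -3.73) and at 325 CPM against 4205 CPM in control (log2 difference -3.69, interval -3.89 to -3.49). These were the 2 of 10 measured synapse genes past 2-fold, both lower.

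Nalf1, an auxiliary subunit of a sodium leak channel, stood at 44.7 CPM in outer against 3067 CPM in inner nuclei of Serpine2 cOE (log2 difference -6.10, interval -6.49 to -5.74), and at 39.7 CPM against 2350.4 CPM in control (log2 difference -5.89, interval -6.37 to -5.43). It led, with Hs3st4, the 12 genes lowest in outer nuclei, which also held Rims2, Adarb2, Csmd1, Cd96, Nwd2, Ppp2r2b, Shtn1, Asic2, Pgap1 and Agbl1. All 12 had control intervals below 0. The bundle genes Pkhd1l1 and Xirp2 had log2 differences of -2.63 and -2.14 in Serpine2 cOE, and of -2.55 and -1.89 in control. Slc8a1, the sodium-calcium exchanger, had -2.23 (-2.40 to -2.05) in Serpine2 cOE and -1.98 (-2.28 to -1.67) in control.

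Higher in the outer gate were Dync1i1 (a dynein intermediate chain), Cacna2d3 (an auxiliary calcium channel subunit), Dnah8 (an axonemal dynein heavy chain), Septin4, Mboat7, Bcl11a (a zinc finger factor), Sft2d2, Ankrd6, B3galt5, Ccn4, Jakmip1 and Acvr1c (an activin receptor-like kinase). Bcl11a stood at 214 CPM in outer against 35.3 CPM in inner nuclei of Serpine2 cOE (log2 difference 2.60, interval 1.83 to 3.49), and at 188 CPM against 36.7 CPM in control (log2 difference 2.35, interval 0.98 to 4.24). Dnah8 stood at 94.4 CPM against 7.57 CPM in Serpine2 cOE (log2 difference 3.64, interval 2.06 to 5.93) and at 58.3 CPM against 9.18 CPM in control (log2 difference 2.67, interval 0.14 to 7.99). Each of the 12 rested on 1 to 4 inner UMIs in control, and 8 of them had a control interval above 0. Acvr1c had no inner UMI in Serpine2 cOE, where 3 counts give it a log2 difference of at least 2.67. When the gates were set after thinning, which left 13 and 1 inner nuclei, 0 of the 12 were higher in both libraries. With a UMI maximum of 8000, the smaller of the library log2 ratios was 0.32 for B3galt5 and 0.026 for Sft2d2, and the libraries differed in direction for Ankrd6.

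Among listed genes, Strc, Piezo2, Itpr2 and Six2 were 2-fold or more higher in outer nuclei in both libraries, and so were the supporting cell genes Fgfr3 and Otogl, the epithelium gene Epyc, the glia gene Sox10 and the mesenchyme gene Col1a1. Each of these genes of other cells rested on 1 or 2 inner UMIs in control, and their part in the difference between the gates was not tested. Strc was higher in outer nuclei by 1.69 (1.02 to 2.45) in Serpine2 cOE and 2.25 (0.87 to 4.13) in control. None of 8 measured outer hair cell markers outside the rule was past 2-fold in both libraries. Their median log2 difference, outer over inner, was 1.495 in Serpine2 cOE and 0.42 in control, against 0.27 and 0.41 over all measured genes. The control inner gate held 16 nuclei, 5 of them with a UMI of Slc26a5. A count over both libraries thus cannot decide whether these markers separate the gates. Kcnn2 differed by 0.09 (-0.16 to 0.35) in Serpine2 cOE and 0.10 (-0.37 to 0.62) in control, so it did not separate these gates.

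**Figure D3:**
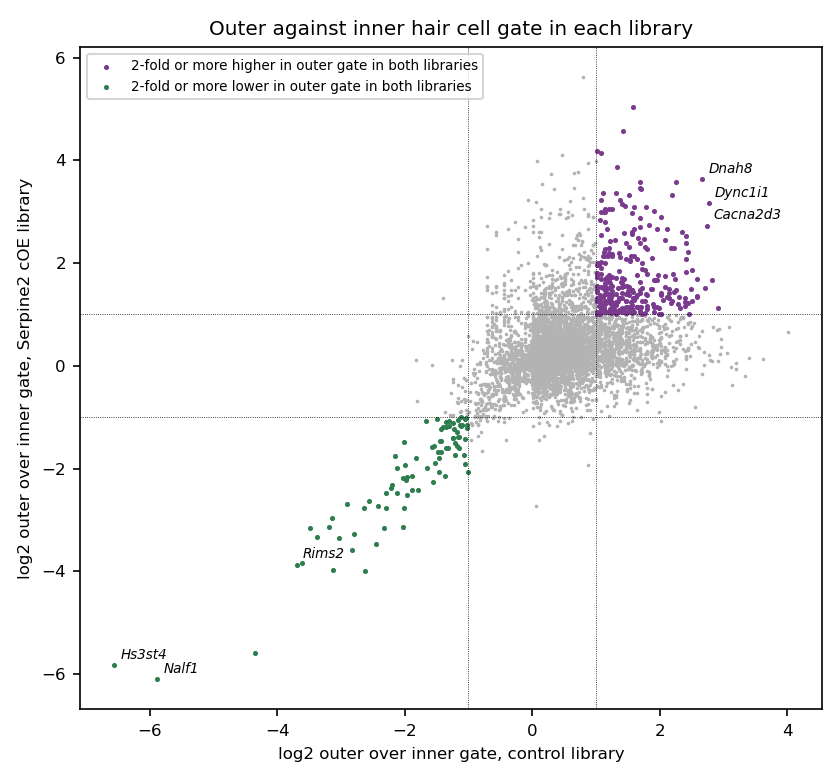
The log2 ratio of the outer over the inner hair cell gate for each of 4965 genes, in the Serpine2 cOE library (vertical axis) and the control library (horizontal axis), with lines at 2-fold. The extremes at the lower left are Nalf1 and Hs3st4, at -6.10 and -5.82 in Serpine2 cOE.

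Gated nuclei differed among themselves in the detection of Tmc2, a transduction channel gene of immature hair cells, together with Samsn1 and Astn2, a set chosen after its values were seen. At least 2 of these 3 genes were detected in 32 of 259 nuclei of Serpine2 cOE (12.4%, 8.61% to 17.0%) and 29 of 231 of control (12.6%, 8.57% to 17.5%). The Tmc2 set was deeper, with median depths of 6864 UMIs in Serpine2 cOE and 6555 UMIs in control, against 4885 and 4817 UMIs in the rest of the gate, and the part of depth was not tested. Of 4645 genes other than these 3, 102 (2.20%) were 2-fold or more higher in the Tmc2 set in both libraries and 250 (5.38%) 2-fold or more lower, and the median gene differed by -0.24 in Serpine2 cOE and -0.30 in control. In control the Tmc2 set held 196310 UMIs and the rest of the gate 986970 UMIs. The minimum of 20 UMIs on the higher side was therefore a higher level in the Tmc2 set. These counts and medians thus do not compare the directions.

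Xirp2, an actin-binding protein of the bundle, stood at 3213 CPM in the Tmc2 set against 232 CPM in the rest of the gate in Serpine2 cOE, and at 2491 CPM against 163 CPM in control. Pkhd1l1, a protein of the stereocilia coat, stood at 452 CPM against 39.9 CPM in Serpine2 cOE and at 362 CPM against 40.5 CPM in control. Rims2 stood at 1163 CPM against 178 CPM in Serpine2 cOE (log2 difference 2.71, interval 2.44 to 2.98) and at 983 CPM against 195 CPM in control (log2 difference 2.34, interval 2.04 to 2.63). Of 23 measured bundle genes outside the rule, 5 were higher in the Tmc2 set, among them Myo3b, Whrn, Grxcr1 and Xirp2, and Homer2 was lower. Jag2, a Notch ligand of hair cells, differed by 1.42 (0.78 to 2.04) in Serpine2 cOE and 1.98 (1.31 to 2.64) in control.

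Some genes high in the Tmc2 set were also high in the inner gate, but the overlap was not counted. Xirp2, Pkhd1l1, Rims2 and Adarb2 were 2-fold or more higher in the inner than in the outer gate in both libraries, as were 1.71% of all genes measured there. Rprm, from the list of inner hair cell markers, was higher in the Tmc2 set by 2.46 (1.62 to 3.29) in Serpine2 cOE and 2.74 (1.80 to 3.71) in control. It was the only 1 of 3 measured markers of that list past 2-fold in both libraries. The list medians were 0.31 in Serpine2 cOE and 0.43 in control, against -0.24 and -0.30 over all measured genes. Tmc2 had a UMI in 45.2% of inner gate nuclei of Serpine2 cOE and 37.5% of those of control, against 15.1% and 15.6% of outer gate nuclei, and after thinning in 17.7% and 12.5% against 4.65% and 4.50%.

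Ryr1 had 2 UMIs in the Tmc2 set against 176 in the rest of the gate in Serpine2 cOE, and 0 against 132 in control. Mical2, an actin-oxidising enzyme gene, stood at 8.78 CPM against 122 CPM in Serpine2 cOE (log2 difference -3.80, interval -6.86 to -1.92) and at 5.09 CPM against 104 CPM in control (log2 difference -4.36, interval -9.67 to -1.85). Rorb, a nuclear receptor gene, differed by -1.79 (-2.12 to -1.47) in Serpine2 cOE and -1.99 (-2.42 to -1.58) in control. These genes were thus low in the Tmc2 set in both libraries. Of the genes of the rule, Ikzf2 stood at 158 CPM in the Tmc2 set against 660.0 CPM in the rest of the gate in Serpine2 cOE and at 127 CPM against 658 CPM in control. Tmc1, the channel gene of mature hair cells, stood at 593 CPM against 2022 CPM in Serpine2 cOE and at 678 CPM against 1952 CPM in control. Slc26a5 lay closer, at 342 CPM against 463 CPM in Serpine2 cOE and at 321 CPM against 418 CPM in control.

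**Figure D4:**
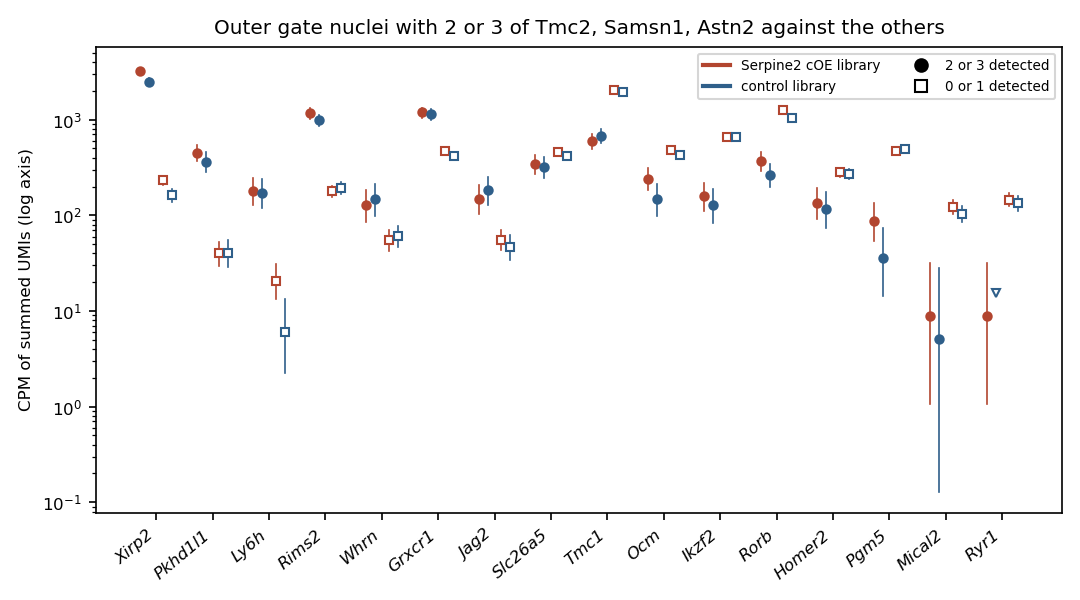
Levels of 16 genes in CPM on a log axis for outer gate nuclei with 2 or 3 of Tmc2, Samsn1 and Astn2 detected (circles) and for the other outer gate nuclei (open squares), red for Serpine2 cOE and blue for control, with 95% counting intervals. Xirp2, Pkhd1l1 and Ly6h are higher in the circles in both libraries and Ikzf2, Tmc1, Rorb and Mical2 lower, and the open triangle for Ryr1 in control marks 0 UMIs, placed at the level of 3 counts.

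Between the libraries, few genes of the gated nuclei were past 2-fold, in the hair cell lists as over all genes. Of 10143 genes with at least 30 UMIs and at least 10 gated nuclei, 113 (1.11%) were 2-fold or more higher in Serpine2 cOE and 191 (1.88%) 2-fold or more lower, with a median log2 difference of 0.00. The counting interval lay above 0 for 664 genes (6.55%) and below 0 for 806 (7.95%). None of the measured genes outside the rule was past 2-fold among 9 outer hair cell markers, 7 motility and efferent genes, 6 mechanotransduction genes, 30 bundle genes, 19 calcium and potassium handling genes, 16 synapse genes and 19 transcription factors. This lay near the shares of all measured genes, 1.11% and 1.88%. The medians of these lists lay between 0.07 and 0.17, above the 0.00 of all measured genes. With the gate set after thinning those of the outer hair cell markers and of the motility and efferent genes were both -0.079.

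Small differences past counting error occurred within these lists. Of the 9 outer hair cell markers, 3 had an interval above 0 and 0 below, and of the 30 bundle genes 6 above and 1 below. Over all measured genes 6.55% lay above and 7.95% below. Of the 19 calcium and potassium handling genes, 8 had an interval above 0 and 0 below. Summed over all 22 genes of this list the log2 difference was 0.17 in the outer gate, 0.18 in all other nuclei and 0.25 in the inner gate, so the list was higher in Serpine2 cOE outside the gate as well. Calb1 stood at 835 CPM (789 to 884) in Serpine2 cOE, compared with 708 CPM (661 to 758) in control, and Calb2, the buffer calretinin, differed by 0.54 (0.17 to 0.91). Of the 19 transcription factors, 5 had an interval above 0 and 0 below, led by Lhx3 at 0.81 (0.34 to 1.30). Summed over 28 listed factors the difference was 0.15 in the outer gate and 0.27 in all other nuclei. Of the 16 synapse genes, 3 had an interval above 0 and 3 below. Piezo2, a mechanically gated channel gene, differed by -0.76 (-1.23 to -0.29), lower in Serpine2 cOE, while Ryr1 differed by 0.16 (-0.18 to 0.49) and Chrna10 by 0.13 (-0.14 to 0.39).

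The 12 genes highest in Serpine2 cOE over control by the nearer bound of the interval were Lum, Chst9, Mia, Slc25a42, Ngrn, Gpr137c, Ecrg4, Derl2, Mfap2, Acvr2a, Snrpf and Fggy. Lum, a matrix proteoglycan of connective tissue, stood at 110.4 CPM (93.9 to 129) in Serpine2 cOE, compared with 40.6 CPM (29.9 to 53.8) in control (log2 difference 1.44, interval 0.97 to 1.94). Mia stood at 282 CPM (256 to 311) in Serpine2 cOE, compared with 144 CPM (123 to 167) in control (log2 difference 0.97, interval 0.71 to 1.24). Ecrg4 stood at 145 CPM (126 to 167) in Serpine2 cOE, compared with 75.2 CPM (60.4 to 92.6) in control (log2 difference 0.95, interval 0.59 to 1.33). In all other nuclei Lum, Mia and Ecrg4 were also higher in Serpine2 cOE, with log2 differences of 0.87, 0.89 and 0.74, and 9 of the 12 genes had an interval above 0 there. The part of RNA from other cells in these values was not tested. With each nucleus weighted equally Ecrg4 differed by 0.55, and with the gate set after thinning Slc25a42 differed by 0.61. Acvr2a, an activin receptor gene, stood at 143 CPM (124 to 164) in Serpine2 cOE, compared with 76.9 CPM (61.9 to 94.4) in control, with log2 differences of 0.89 (0.53 to 1.26) in the gate and 0.20 (0.11 to 0.28) in other nuclei. Fggy, a carbohydrate kinase gene, differed by 0.78 (0.51 to 1.06) in the gate and 0.10 (-0.01 to 0.21) in other nuclei.

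The 12 genes lowest in Serpine2 cOE were Syne1, Kctd8, Mgat4c, Sgcz, Dscam, Col14a1, Pced1b, Opcml, Galnt18, Sptlc3, Pdgfd and Itgbl1. Dscam, a cell adhesion gene, stood at 97.9 CPM (82.3 to 115) in Serpine2 cOE, compared with 241 CPM (214 to 271) in control, a log2 difference of -1.30, against -0.08 (-0.24 to 0.09) in other nuclei. Opcml, an adhesion gene of the IgLON family, stood at 70.6 CPM (57.5 to 85.8) in Serpine2 cOE, compared with 166 CPM (143 to 191) in control (log2 difference -1.23, interval -1.59 to -0.88), and differed by -0.56 (-0.59 to -0.52) in other nuclei. Kctd8, an auxiliary subunit of GABA-B receptors, stood at 31.5 CPM (22.9 to 42.1) in Serpine2 cOE, compared with 98.9 CPM (81.8 to 119) in control (log2 difference -1.65, interval -2.18 to -1.14). Several of these differences changed with the settings. With the gate set after thinning, the log2 difference was 0.022 for Kctd8, -0.29 for Col14a1, -0.33 for Pdgfd, -0.56 for Sptlc3, -0.59 for Opcml, -0.82 for Galnt18, -1.26 for Syne1 and -1.30 for Sgcz. With a UMI maximum of 8000 Pdgfd had -0.61 (-1.27 to 0.04) and Sgcz -1.36 (-2.90 to 0.02), so counting error covered either direction. With at least 5 or at least 3 of the 8 hair cell genes Kctd8 had -1.66 and -1.69, and without top Scrublet scores Pdgfd had -2.05. Of the 12 genes, 6 had an interval below 0 in other nuclei as well.

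**Figure D5:**
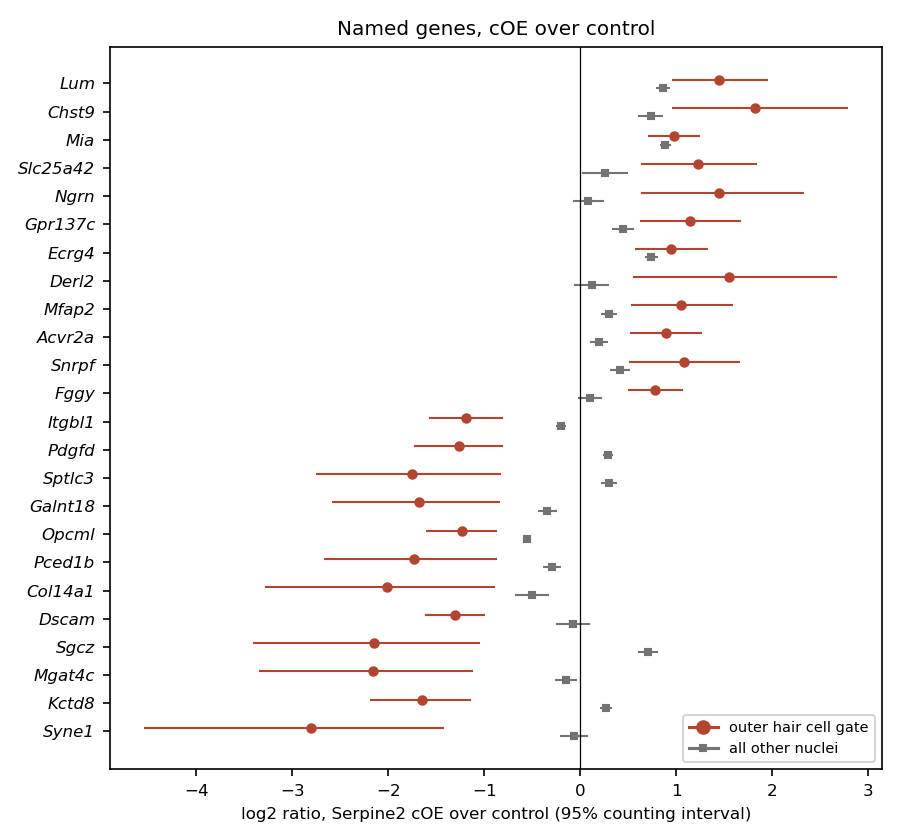
The log2 ratio of Serpine2 cOE over control for the 24 named genes, in the outer hair cell gate and in all other nuclei, with 95% counting intervals and a line at 0. Lum and Mia lie above 0 in both, whereas Kctd8, Sgcz, Sptlc3 and Pdgfd lie below 0 in the gate and above 0 in other nuclei.

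Markers of other cells differed between the gates of the libraries too. Summed over 10 macrophage markers, gated nuclei held 91.6 CPM (76.6 to 109) in Serpine2 cOE, compared with 161 CPM (139 to 185) in control, a log2 difference of -0.81 (-1.14 to -0.48), and 0 of the 10 were at 0 UMIs in either library. Summed over 11 mesenchyme markers they held 851 CPM in Serpine2 cOE and 984 CPM in control, a log2 difference of -0.21 (-0.33 to -0.09). Sums over endothelium, glia and osteoblast or chondrocyte markers differed by -0.43 (-0.74 to -0.11), -0.37 (-0.69 to -0.04) and -0.33 (-0.53 to -0.14). The control gate thus carried more RNA of these lists, though not of every list of other cells. Supporting cell markers summed higher in Serpine2 cOE by 0.14 (0.05 to 0.24), and epithelium markers outside the rule differed by 0.15 (-0.01 to 0.32). Sums over neuron and erythroid markers differed by -0.03 (-0.17 to 0.10) and -0.09 (-0.44 to 0.27). In all other nuclei the sums differed by -0.56 for macrophage, -0.20 for mesenchyme and -0.29 for endothelium markers, and by 0.29 for glia and 0.03 for osteoblast or chondrocyte markers. Of the defining markers Cldn5 was at 0 UMIs in Serpine2 cOE and Cdh5, Ptprb, Sp7 and Acan in control. The part of RNA of other cells in the genes lower in Serpine2 cOE was not tested. Of 10 measured mesenchyme genes, Col1a1, Pdgfrb and Ebf2 were 2-fold or more lower in Serpine2 cOE, with Ebf2 at -1.06 (-1.43 to -0.68) in the gate and -0.62 (-0.65 to -0.58) in other nuclei. Ibsp, a bone matrix gene, was higher by 1.67 (0.81 to 2.64) in the gate and 1.85 (1.70 to 2.01) in other nuclei. Gjb2, a connexin gene of supporting cells, stood at 32.8 CPM (24.1 to 43.7) in Serpine2 cOE, compared with 16.1 CPM (9.67 to 25.1) in control.

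Notch and Wnt pathway genes past 2-fold were all lower in Serpine2 cOE, where 1.88% of all measured genes were. Of 12 measured Notch pathway genes, Notch2 was past 2-fold, with 15 UMIs in Serpine2 cOE and 40 in control (log2 difference -1.69, interval -2.65 to -0.80). Of 21 measured Wnt pathway genes, Tcf7, Axin2 and Fzd2 were 2-fold or more lower in Serpine2 cOE, each on 31 or fewer UMIs in either library, and 0 were higher. By the counting interval, 6 of the 21 Wnt genes and 2 of the 12 Notch genes lay below 0 and 0 above, with 7.95% of all genes below, and the list medians were -0.30 and -0.03. Summed over all 26 Wnt pathway genes the log2 difference was -0.13 (-0.22 to -0.05) in the gate and 0.01 (-0.01 to 0.02) in other nuclei. Axin2, a target and inhibitor of the pathway, stood at 11.9 CPM (6.92 to 19.0) in Serpine2 cOE, compared with 26.2 CPM (17.8 to 37.2) in control. The 14 proliferation markers together held 67.1 CPM (54.3 to 81.9) in Serpine2 cOE, compared with 46.5 CPM (35.0 to 60.5) in control, a log2 difference of 0.53 (0.04 to 1.04). In all other nuclei their sum differed by -0.40 (-0.52 to -0.28), lower in Serpine2 cOE. Mki67, a marker of cycling cells, held 47 UMIs in Serpine2 cOE and 28 in control, while Cdk1 and Ccnb1 were at 0 UMIs in Serpine2 cOE, Ccna2 in control, and Bub1 and Aurkb in both. Of the 14 only Mki67 had enough UMIs to be measured alone. Its log2 difference of 0.47 had an interval that included 0.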

How the data were processed

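The files hold deposited counts: whole UMIs per gene and barcode, written with Cell Ranger 8.0.1 per the file headers. The submitters' processing notes also name STAR, whose version was not given in the sources used here, nor was the counting of intronic reads. The design text names GRCm39 and the processing notes mm10, and positions come from GENCODE vM39, which held 33185 of the 33696 identifiers. UMIs were summed per gate and library and scaled to CPM. Intervals are exact Poisson, Clopper-Pearson or conditional binomial at 95%. Past 2-fold is a description, not a test. Named genes were the 12 per direction with the largest smaller ratio over the 2 libraries or, between libraries, the interval bound farthest from 0 with at most 25% of UMIs in 1 nucleus. Members and lists were chosen with earlier results of these data known. Doublets were kept. Scrublet (scanpy 1.11.5) called 0% automatically in both libraries and so did not work, and its top 0.8% of scores per 1000 barcodes (40 and 24 gated nuclei) were removed as an alternative. TMM factors came from edgeR 4.0.16 in R 4.3.3. The ratio code was tested on simulated data. A few listed genes are counted but not reported here by name.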

Additional observations from a re-analysis of the deposited data

Results flagged for a closer look

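Within the outer gate Kctd8, Sgcz, Sptlc3, Pdgfd and the listed gene Otoa were lower in Serpine2 cOE than in control and higher in Serpine2 cOE in all other nuclei, with counting intervals off 0 in both. Kctd8 differed by -1.65 in the gate and 0.27 in other nuclei, and Sgcz by -2.15 and 0.70. Sptlc3 differed by -1.75 in the gate and 0.30 in other nuclei, and Pdgfd by -1.26 and 0.29. Otoa, a gene of the epithelium that borders the organ of Corti, differed by -1.03 in the gate and 0.65 in other nuclei. Whether the gate differs from other nuclei was not tested, since each group was 1 library. Other settings changed these values. With the gate set after thinning, Kctd8 differed by 0.022, Otoa by 0.67, Pdgfd by -0.33 and Sptlc3 by -0.56 within the gate, each with an interval that included 0, while Sgcz had -1.30 (-2.35 to -0.31). With a UMI maximum of 8000, Pdgfd had -0.61, Sgcz -1.36 and Otoa -0.65, again with intervals that included 0. Otoa also had such an interval with at least 3 of the 8 hair cell genes (-0.80) and with at least 2 UMIs over the outer hair cell genes (-0.56).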

How the results depend on the processing

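The share ratio of the outer gate stayed inside its counting interval under every gate setting tried, including nuclei of at least 2000 UMIs (0.952), a setting chosen after seeing the data. Counts past 2-fold moved more. With a minimum of 10 UMIs in total, 466 genes were higher and 665 lower in Serpine2 cOE, 305 lower in the outer than the inner gate, and 3046 higher in the outer gate than in other nuclei. With the minimum doubled, 32 were higher and 52 lower in Serpine2 cOE, and 169 higher and 53 lower in the outer than the inner gate. Genes lower in Serpine2 cOE numbered 373 without top Scrublet scores, 365 with nuclei weighted equally and 127 with the gate set after thinning. Thinning also left 25 genes higher in the outer than the inner gate and 7 listed genes past 2-fold between libraries, against 12 as reported and 6 with a lower UMI maximum. It gave the opposite sign for Cacna2d3 (-0.41), Sft2d2 (-0.54) and Ankrd6 (-0.047) against the inner gate and for Kctd8 (0.022) and Otoa (0.67) between libraries. Few inner nuclei were left at this setting, so the floor given to a count of 0 was high there. The signs against the inner gate therefore cannot show a reversal. The cause of the changes was not tested. Of the other values for single genes, 442 lay inside the counting interval of the reported value and 43 outside it. Some of these intervals were wide, so a value inside was not always close to the reported one. With a UMI maximum of 8000, Sft2d2 against the inner gate fell from 2.26 (-0.28 to 7.59) to 0.026 and counted as inside. Of 187 list medians between libraries, which have no such interval, 3 moved by 0.5 or more and 24 changed sign. No paired analysis was possible because each group was 1 library, so the groups share fewer than 2 replicate numbers.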
